A study of Mus musculus with 2 samples.

Results

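Fragments of 10 miRNA hairpins from the proximal part of the imprinted Dlk1-Dio3 cluster were counted in J1 mouse embryonic stem cells kept with SB431542 or with DMSO. The hairpins were Mir379, Mir411, Mir299a, Mir380, Mir323, Mir329, Mir543, Mir495, Mir376b and Mir376a, 10 of the 1174 named miRNA hairpins in the GENCODE mouse annotation. Their fragments were taken as sequences of 15 to 17 nt that match a hairpin exactly and in full on its sense strand. There were 45 such sequences, 43 of them found in a single named miRNA hairpin. The longest read analysed was 17 nt, below the length of the mature miRNAs of these hairpins. The values are therefore counts of fragments, and full-length miRNAs are not analysed here.

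The treated cells were J1, a line of strain 129S4/SvJae, kept for 24 h with 3 µM SB431542, which blocks the kinases of the activin, Nodal and TGF-beta type I receptors. The control cells were the same line kept for 24 h with an equal volume of DMSO, the solvent. Both cultures were on gelatin, in medium that held 1000 U/mL of leukaemia inhibitory factor (LIF) and Knockout Serum Replacement. Each group had 1 library of total RNA, so a difference could not be set against replicates and no test was made. Intervals are at 95% and cover counting error only. The SB431542 library held 517535 reads of 15 to 17 nt, of which 21808 were assigned to miRNA hairpins, and the DMSO library held 990296, of which 77907 were. The hairpins of the miR-290 cluster, which mark mouse stem cells, had reads in 6 of 6 cases and held 48.2% of all miRNA reads with SB431542 and 50.7% with DMSO. Nearly all of these were fragments of a single arm. Of 10501.5 reads with SB431542 and 39498.5 with DMSO, miR-293-3p had 10359 with SB431542 and 38924 with DMSO. Of the primed-cell hairpins of miR-302 and miR-367, 0 of 5 had a read. In these libraries 3 reads would be 138 reads per 1000000 miRNA reads (RPM) with SB431542 and 38.5 RPM with DMSO. The fibroblast and feeder list summed to 22 reads with SB431542 and 87.5 with DMSO (6 of 9 hairpins, with Mir214, Mir145a and Mir10b at 0). The let-7 list, which marks differentiated cells, summed to 10.2 reads with SB431542 and 29.7 with DMSO (8 of 8). Their part in the values below was not tested.

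The Dlk1-Dio3 region holds one of the largest miRNA clusters of the mouse genome. Its miRNAs are made from noncoding transcripts of the maternal chromosome, and the expression of these transcripts has been used to tell fully pluripotent mouse stem cell lines from those with the locus silenced. In neurons the cluster is activated by Mef2, miR-543 is known to act on N-cadherin in neural precursors, and hairpins of the miR-376 family are known targets of A-to-I editing in brain. A miRNA pairs with its targets mainly through its seed, bases 2 to 8 from the 5′ end, so a start that is shifted by a single base gives another seed. The 10 hairpins lie on the plus strand of chromosome 12 at chr12:109709060-109723848 (GRCm38), a span of 14789 bp. None lay within an annotated gene of the same strand in the GENCODE annotation, where the noncoding gene Mirg starts 5916 bp after the end of the last hairpin, Mir376a. Mir299a, Mir380 and Mir376a each overlap an annotated miRNA gene on the opposite strand (Mir299b, Gm25750 and Gm25252).

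The mature sequences of the arms with most reads, and of their close relatives among the 10, are shown because nearly all fragments are stretches of them, apart from those of miR-411-5p that begin 1 base earlier, with the seed in capitals (RefSeq, GRCm38.p6). The hairpin sequences of RefSeq and GENCODE were the same for 10 of 10.
miR-411-5p: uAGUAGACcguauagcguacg
miR-379-5p: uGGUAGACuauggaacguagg
miR-323-3p: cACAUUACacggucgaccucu
miR-543-3p: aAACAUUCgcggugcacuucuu
miR-495-3p: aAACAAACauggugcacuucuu
miR-376a-3p: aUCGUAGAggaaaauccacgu
miR-376b-3p: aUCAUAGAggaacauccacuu
miR-329-5p: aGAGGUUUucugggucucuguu
miR-299a-3p: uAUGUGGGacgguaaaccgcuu

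The 4 commonest fragments of miR-411-5p are shown as they stand in the files, as DNA, because they carry its 2 starts. Start 0 is the first base of the RefSeq sequence and start -1 the base before it, and bases 2 to 8 of each fragment are in capitals.
start -1, 17 nt: aTAGTAGAccgtatagc
start -1, 16 nt: aTAGTAGAccgtatag
start 0, 16 nt: tAGTAGACcgtatagc
start 0, 15 nt: tAGTAGACcgtatag

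The reads of the 10 hairpins came almost wholly from 4 arms, each with at least 50 reads over both libraries: miR-411-5p, miR-323-3p, miR-543-3p and miR-376a-3p. Together the 10 hairpins had 449.5 reads in the SB431542 library and 1299 in the DMSO library, where a read shared by several hairpins counts in equal parts. The 4 arms held 96.1% of these with SB431542 and 96.8% with DMSO. The 5p arms supplied 59.6% of the reads with SB431542 (54.9 to 64.2, Clopper-Pearson) and 58.5% with DMSO (55.8 to 61.2), nearly all from miR-411-5p. Among reads of 17 nt alone this share was 43.5% with SB431542 and 39.4% with DMSO. Of the 20 arms, 9 had no read in either library.

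Mir411 was the hairpin with most reads. It lies at chr12:109710175-109710256 (plus strand), and miR-411-5p had 257 reads with SB431542 and 728 with DMSO, 8th in number of reads among the 45 miRNA arms with at least 50 reads. No read of miR-411-3p was found, where 3 reads would be 1.17% of the hairpin's reads with SB431542 and 0.412% with DMSO. Mir323, at chr12:109712508-109712593, followed: miR-323-3p had 113 reads with SB431542 and 358 with DMSO. Its 5p arm had no read, where 3 reads would be 2.65% with SB431542 and 0.838% with DMSO. Mir543, at chr12:109717258-109717333, gave 34 reads of miR-543-3p with SB431542 and 105 with DMSO. It gave no read of its 5p arm, where 3 reads would be 8.82% with SB431542 and 2.86% with DMSO. Mir376a, at chr12:109723781-109723848, gave 28 reads of miR-376a-3p with SB431542 and 67 with DMSO. Its 5p arm had none either, where 3 reads would be 10.7% with SB431542 and 4.48% with DMSO.

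The order of these 4 arms by reads was the same in both libraries. The counting intervals of miR-543-3p (23.5 to 47.5 reads) and miR-376a-3p (18.6 to 40.5) overlapped with SB431542, and with DMSO they were 85.9 to 127 and 51.9 to 85.1 and did not overlap. Those of miR-411-5p and miR-323-3p stood apart from all others in each library. The next arm was miR-329-5p, from Mir329 at chr12:109713481-109713577, with 11 reads with SB431542 and 31 with DMSO. Its 3p arm had 2 reads with SB431542 and 3 with DMSO, which made Mir329 the only hairpin of the 10 with reads on both arms.

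**Figure D1:**
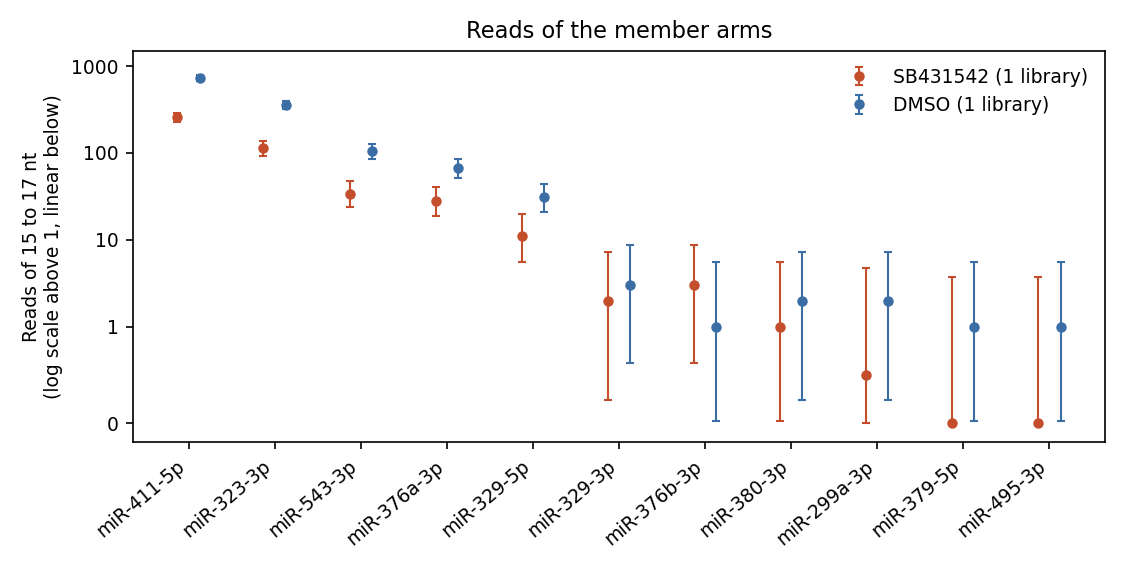
Reads of 15 to 17 nt (y axis, log scale above 1 read and linear below it) of the 11 arms with a read, in the SB431542 and the DMSO library, with exact Poisson 95% intervals. The 4 arms at the left have from 28 to 257 reads with SB431542 and from 67 to 728 with DMSO, and the 6 arms at the right have at most 3 in either library.

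The other hairpins were at the floor of 3 reads or below it in each library. A single read of miR-379-5p was found, with DMSO, and a single one of miR-495-3p, also with DMSO. The 3p side of Mir380 had 1 read with SB431542, which lay mostly in the loop, and 2 with DMSO, which began at the RefSeq start of miR-380-3p, and miR-376b-3p had 3 with SB431542 and 1 with DMSO. The reads of miR-299a-3p, 1 with SB431542 and 4 with DMSO before they were divided, fell in both Mir299a and Mir299b, which is annotated on the opposite strand of the same place, and the fragments cannot tell these hairpins apart. No other fragment was shared by related hairpins.

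The relatives of the abundant arms were told apart by few bases. From the 5′ end of miR-376a-3p, miR-376b-3p differs at 3 of 21 positions (G4A, A13C and G20U), of which G4A lies in the seed, and every fragment read from these arms included this position except for 1 read with DMSO, which lay mostly in the loop of Mir376a and also matched Golga3. In miR-543-3p against miR-495-3p, 4 of 22 positions differ (U6A, U7A, G9A and C10U), and in miR-411-5p against miR-379-5p 7 of 21 do, A2G among them. Reads were thus given to Mir411 and not Mir379, to Mir543 and not Mir495, and to Mir376a and not Mir376b, on exact sequence. The seed of miR-411-5p is shared with miR-7229-5p, those of miR-323-3p, miR-543-3p, miR-376a-3p and miR-376b-3p with no other mature miRNA in the RefSeq table, and that of miR-379-5p with miR-1193-5p.

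The fragments of miR-411-5p began at 2 neighbouring bases. Start -1 held 153 of 257 reads with SB431542, 59.5% (53.3 to 65.6), and 396 of 728 with DMSO, 54.4% (50.7 to 58.1). Start 0, the RefSeq start, held 103 reads with SB431542, 40.1% (34.0 to 46.3), and 327 with DMSO, 44.9% (41.3 to 48.6). The remaining reads, 1 with SB431542 and 5 with DMSO, began at start 1. Fragments that begin at start -1 have the seed UAGUAGA, found in no mature miRNA of the RefSeq table, in place of AGUAGAC. The share at start 0 was lower with SB431542, but the log2 odds ratio of start 0 to start -1, SB431542 over DMSO, was -0.29 with an interval of -0.73 to 0.14 that included 0. No difference between the libraries in start use was detectable at this depth. The share of start 0 depended on fragment length: among reads of 17 nt alone it was 9.68% with SB431542 and 6.06% with DMSO.

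**Figure D2:**
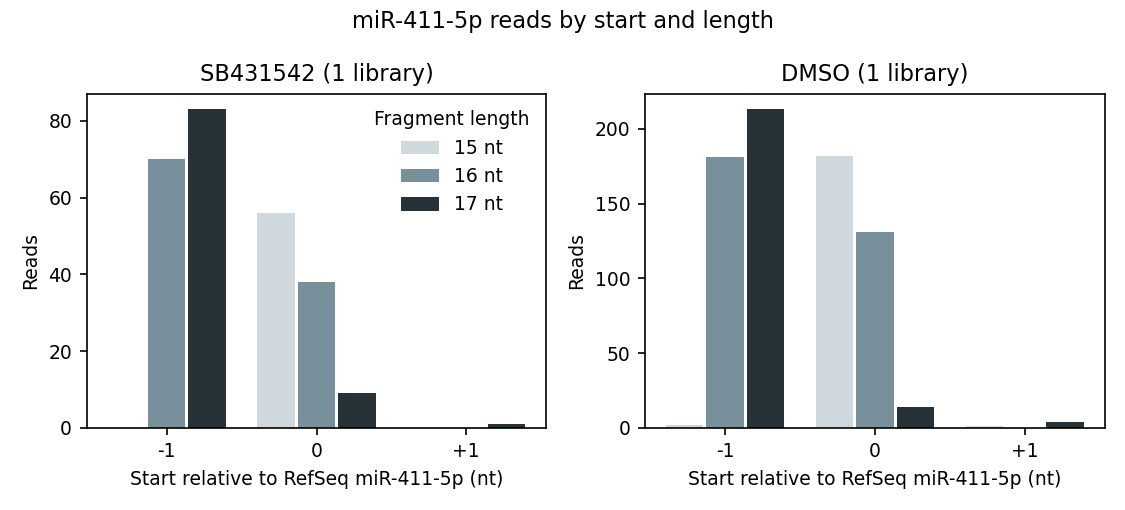
Reads of miR-411-5p (y axis, a scale of its own in each panel) by start relative to the RefSeq sequence (x axis, nt) and by fragment length (shade), in the SB431542 library (left) and the DMSO library (right). Start -1 has mostly reads of 16 and 17 nt, up to 83 with SB431542 and 213 with DMSO, and start 0 mostly of 15 and 16 nt, up to 56 with SB431542 and 182 with DMSO.

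A second start of this size set miR-411-5p apart from the other members. In miR-323-3p the RefSeq start held 95.6% of the reads with SB431542 and 97.8% with DMSO. For miR-543-3p it held 33 of 34 reads with SB431542 and 103 of 105 with DMSO, and for miR-376a-3p 28 of 28 with SB431542 and 65 of 67 with DMSO. Without miR-411-5p, 96.4% of the members' reads with SB431542 and 97.5% with DMSO began at the RefSeq start of their arm. Over both libraries the second start of miR-411-5p held 43.7% of its reads, the highest of the 45 arms with at least 50 reads, among which 11 had a second start with more than 10%. The next were miR-6538-5p with 35.4% and miR-409-3p, of the distal part of the cluster, with 35.1%. This arm was singled out for its starts when the hairpins were chosen, so its place is a description.

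The 3′ ends of miR-411-5p fragments lay at the same bases for both starts. Counted from the RefSeq first base, bases 15 and 16 were the last base of 247 of 257 reads with SB431542, 96.1% (93.0 to 98.1), and of 708 of 728 with DMSO, 97.3% (95.8 to 98.3). From start -1, 70 reads with SB431542 and 181 with DMSO ended at base 15, and 83 with SB431542 and 213 with DMSO at base 16. From start 0, 56 reads with SB431542 and 182 with DMSO ended at base 15, and 38 with SB431542 and 131 with DMSO at base 16. Base 17 was the last of 9 reads with SB431542 and 14 with DMSO. Start 0 thus had most of its reads at base 15 and start -1 at base 16. Fragments from start -1 that run past base 16 would be longer than 17 nt and could not be seen. From start 0 base 17 could be seen, and it held 8.74% of the reads with SB431542 (4.07 to 15.9) and 4.28% with DMSO (2.36 to 7.08). Towards shorter fragments, base 14 was the last base of 0 reads of 15 nt from start -1 with SB431542 and 2 with DMSO, and of 1 read of 14 nt from start 0 in each library.

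In the 3p members the longest fragments led. The commonest fragment of each of the 3 arms is shown, again with bases 2 to 8 in capitals, and each begins at the RefSeq start and is 17 nt long.
miR-323-3p: cACATTACacggtcgac
miR-543-3p: aAACATTCgcggtgcac
miR-376a-3p: aTCGTAGAggaaaatcc
The first had 79 reads with SB431542 and 251 with DMSO, the miR-543-3p fragment 26 with SB431542 and 91 with DMSO, and the miR-376a-3p fragment 19 with SB431542 and 42 with DMSO. At the RefSeq start, reads of 17 nt made up 73.1% of miR-323-3p with SB431542 (63.8 to 81.2) and 71.7% with DMSO (66.7 to 76.4). In miR-543-3p they made up 78.8% with SB431542 (61.1 to 91.0) and 88.3% with DMSO (80.5 to 93.8). In miR-376a-3p they made up 67.9% with SB431542 (47.6 to 84.1) and 64.6% with DMSO (51.8 to 76.1). Each of these intervals lay above the one of miR-411-5p at start 0 in the same library. The ends of these arms past base 17 could not be seen, so 17 nt is the end of the range and not a boundary of the fragments. As in miR-411-5p, the shares of the libraries had overlapping intervals in each arm.

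**Figure D3:**
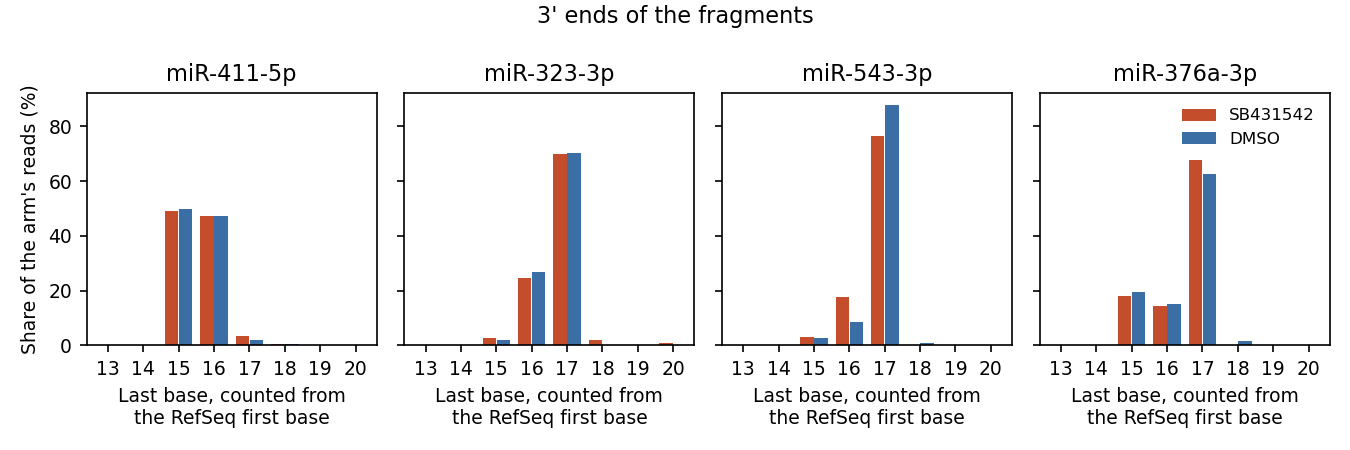
Share of each arm's reads (y axis, %) by the last base of the fragment, counted from the first base of the RefSeq sequence (x axis), in the SB431542 and the DMSO library. In miR-411-5p bases 15 and 16 hold 96.1% of the reads with SB431542 and 97.3% with DMSO, while in miR-323-3p, miR-543-3p and miR-376a-3p base 17, the last that a fragment of 17 nt from the RefSeq start can reach, holds most. Most miR-411-5p fragments begin 1 base before the RefSeq start and can reach base 16 at most, so the length range itself sets part of this contrast.

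The comparison of SB431542 with DMSO describes how the counts of these fragments differed between the libraries, 1 for each group. Of the 4 described member arms, 0 differed by 2-fold, against 11.1% of the 45 miRNA arms with at least 50 reads, 6.67% being higher with SB431542 and 4.44% lower. In RPM the 10 hairpins summed to 20612 RPM with SB431542 and 16674 RPM with DMSO, 1.24-fold higher, a log2 ratio of 0.31 (0.15 to 0.46, exact conditional binomial). They made up 2.06% of the miRNA reads with SB431542 (1.88 to 2.26) and 1.67% with DMSO (1.58 to 1.76). With the total of 15 to 17 nt reads as the scale, these hairpins stood at 869 per 1000000 with SB431542 and 1312 with DMSO, a log2 ratio of -0.59 (-0.75 to -0.44). The sign thus depended on the total, because miRNA reads as a whole made up 4.21% of the reads of this length with SB431542 and 7.87% with DMSO.

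Arm by arm the values had that same pattern. For miR-411-5p there were 11785 RPM with SB431542 and 9344 RPM with DMSO, a log2 ratio of 0.34 (0.12 to 0.54). Its interval was the only one of the 4 that lay above 0 in RPM, against 24.4% of the 45 arms. With edgeR factors its ratio was -0.011, and with DESeq2 factors 0.085 (-0.13 to 0.29). Both sets of factors were computed from the miRNA arms without a read minimum, so arms with few reads entered them. The intervals do not cover the error of the factors. At start -1 the log2 ratio in RPM was 0.47 (0.19 to 0.74) and at start 0 it was 0.18 (-0.16 to 0.49). For miR-323-3p, with 5182 RPM with SB431542 and 4595 RPM with DMSO, the log2 ratio was 0.18 (-0.14 to 0.48). For miR-543-3p, with 1559 RPM with SB431542 and 1348 RPM with DMSO, it was 0.22 (-0.39 to 0.78). In miR-376a-3p, with 1284 RPM with SB431542 and 860.0 RPM with DMSO, the ratio was the highest of the 4 at 0.59 (-0.11 to 1.23), on the fewest reads. For these 3 arms a difference in RPM was not detectable at this depth. With edgeR factors miR-323-3p stood at -0.17, miR-543-3p at -0.12 and miR-376a-3p at 0.25, and with DESeq2 factors at -0.074, -0.028 and 0.34.

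Differences among the 4 ratios were not detectable at this depth. Over the 6 pairs of arms, the interval of the difference of log2 ratios included 0 in 6. The widest of these differences, miR-323-3p minus miR-376a-3p, was -0.40 (-1.14 to 0.36), and the difference of the most abundant pair, miR-411-5p minus miR-323-3p, was 0.16 (-0.22 to 0.54). Without miR-411-5p the other reads of the 10 hairpins, 192.5 with SB431542 and 571 with DMSO, gave a log2 ratio of 0.27 (0.03 to 0.51). On the scale of 15 to 17 nt reads, ratios (log2) were -0.56 (-0.78 to -0.36) for miR-411-5p, -0.72 (-1.05 to -0.42) for miR-323-3p, -0.68 (-1.29 to -0.12) for miR-543-3p and -0.31 (-1.01 to 0.33) for miR-376a-3p.

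GC content moved with the libraries. The mean GC content of the reads of 15 to 17 nt was 64.2% with SB431542 and 60.7% with DMSO, while that of the members' reads was 44.8% over both libraries. It was 40.6% for miR-411-5p and 38.8% for miR-376a-3p, against 52.2% for miR-323-3p and 52.7% for miR-543-3p. Among sequences outside miRNA hairpins, the median log2 ratio on the scale of 15 to 17 nt reads was -0.44 for a GC content of 40 to 50% and -0.72 for 30 to 40%. The part of GC content in the members' ratios was not tested beyond the correction that follows. Dividing by such medians, a correction chosen after the data had been seen, gave log2 ratios in RPM of 0.58 for miR-411-5p, 0.84 for miR-376a-3p, 0.12 for miR-323-3p and 0.16 for miR-543-3p, and 0.46 for the 10 hairpins. None of these reached 2-fold.

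**Figure D4:**
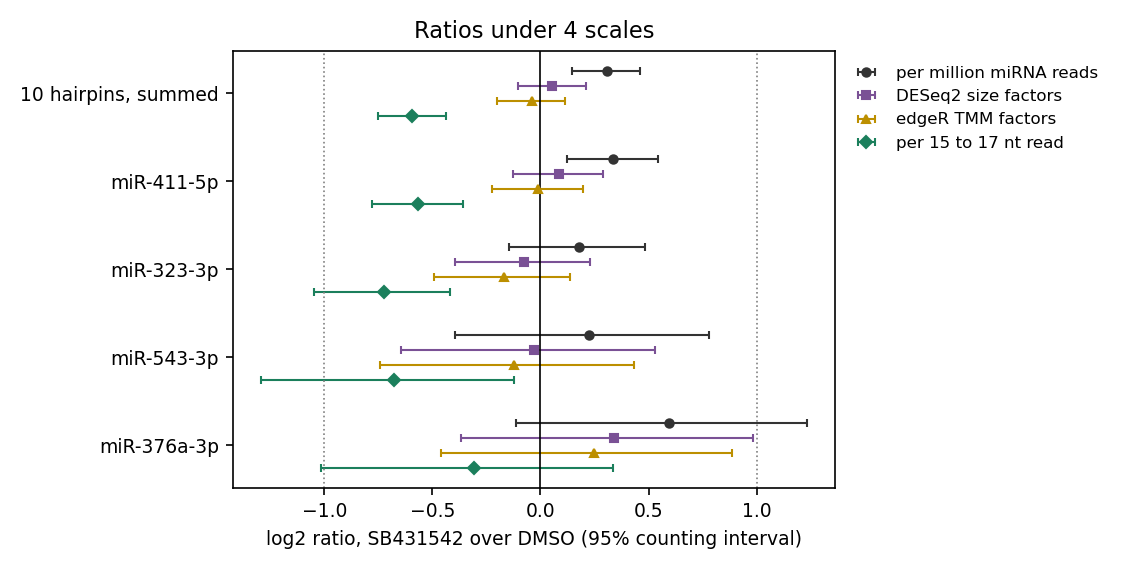
log2 ratio of SB431542 over DMSO (x axis) with 95% counting intervals for the 10 hairpins summed and the 4 described arms (y axis), under 4 scales; dotted lines mark 2-fold. The sum lies at 0.31 in RPM, at 0.055 with DESeq2 factors, at -0.040 with edgeR factors and at -0.59 per 15 to 17 nt read.

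The rest of the Dlk1-Dio3 region had far more reads. Its 48 listed hairpins, 46 of which are in the annotation under these names, had 5102.5 reads with SB431542 and 17926 with DMSO. Of these reads, miR-382-5p had 2667 with SB431542 and 8538 with DMSO, and miR-409-3p had 1978 with SB431542 and 7531 with DMSO. These arms thus held most of the listed reads and weigh most in their sum and its ratio. The list is not a distal part alone, since it includes Mir299b, which overlaps Mir299a on the opposite strand. The 10 proximal hairpins held 8.10% of the region's reads with SB431542 and 6.76% with DMSO. The listed hairpins outside the 10 gave a summed log2 ratio in RPM of 0.02 (-0.02 to 0.07), with 1 of their 6 described arms past 2-fold lower with SB431542 and 0 past 2-fold higher. Their median log2 ratio was -0.25, that of the 4 member arms was 0.28 and that of all 45 described arms was 0.13. The arms of the list nearest to the ratio of the 10 hairpins, over the 2 libraries, were miR-431-3p at 0.28, then miR-382-5p at 0.16 and then miR-409-3p at -0.092.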

How the data were processed

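Per the labels, total RNA was isolated with TRIzol and 1 µg of it was used with the TruSeq RNA kit of Illumina. The sources used here do not state how reads were size-selected, trimmed or aligned. Each deposited file lists distinct sequences of 3 to 17 nt with a raw count of reads, not normalized, and the length. The submitters' processing notes name mm9. Coordinates here are those of GRCm38.

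Sequences of 15 to 17 nt were matched exactly to GENCODE M21 transcripts. A sequence was left out if it fitted a small RNA of another class, or over 5 genes besides the hairpin, which removed 0 of the members' 45 sequences. Reads of several hairpins were divided equally. A read belongs to the 5p or 3p arm by its midpoint. Reads were scaled to 1000000 miRNA reads (RPM), so 3 reads correspond to 138 RPM with SB431542 and 38.5 RPM with DMSO. Ratios used a pseudocount of 0.5 read, and arms were described from 50 reads over both libraries. Intervals are conditional binomial, Clopper-Pearson or Poisson intervals at 95%. They cover counting error only, since each group has 1 library. They treat each read as independent, but reads without molecular identifiers are not independent molecules, so the intervals may be too narrow.

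The members and lists were chosen with earlier results of these data known. All members are accounted for, and arms with at least 50 reads have ratios. The functions were checked on simulated data. The alternatives were other scaling factors (edgeR 4.0.16, DESeq2 1.42.0, R 4.3.3), totals, lengths, pseudocount, read minimum, distinct sequences, thinning, mature arms, a 3′ mismatch and a GC correction added later. Python 3.11.15 with scipy 1.17.1 was used.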

Additional observations from a re-analysis of the deposited data

How the results depend on the processing

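The number of member arms past 2-fold was 0 under each of the 16 alternatives run for it, none of which counted an arm with 3 reads or fewer in both libraries, so that miR-376b-3p, miR-329-3p and miR-380-3p were left out also where no read minimum was set. The scale decided the sign of the ratios. The log2 ratio of the 10 hairpins was -0.040 with edgeR TMM factors, 0.055 with DESeq2 size factors, 0.13 with the miRNA total without its 5 most abundant arms, -0.65 with the reads of every length as the total and -0.59 with reads of 15 to 17 nt as the total. These scales shift every ratio alike, by -0.35, -0.25, -0.17, -0.96 and -0.90. For miR-411-5p the ratio was -0.011 with edgeR factors, 0.085 with DESeq2 factors, -0.62 with all reads, -0.56 with reads of 15 to 17 nt and 0.58 after the GC correction. For miR-323-3p it was -0.17 with edgeR factors, -0.78 with all reads and -0.72 with reads of 15 to 17 nt. Also with all reads and with reads of 15 to 17 nt, miR-376a-3p stood at -0.36 and -0.31, and miR-543-3p at -0.73 and -0.68. The remaining alternatives left the ratios within their counting intervals.

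The share of start 0 in miR-411-5p depended on the length minimum, since its fragments are shorter by construction than those of start -1 with the same end. With at least 16 nt it was 23.4% with SB431542 and 26.7% with DMSO, and with at least 17 nt 9.68% with SB431542 and 6.06% with DMSO. Over distinct sequences it was 50% with SB431542 and 37.5% with DMSO. The share of the 5p arms was 52.9% with DMSO at 16 nt, 43.5% with SB431542 and 39.4% with DMSO at 17 nt, and 30.2% with SB431542 and 33.3% with DMSO over distinct sequences. Over distinct sequences no arm reached 50, so arm ratios have no value there. No paired analysis was possible because each group has 1 library. Depth limits the arms below 50 reads, for which no ratio is given.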

Other observations

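Sequences that differ from a member fragment by a single base were looked for after the data had been seen, among those of 15 to 17 nt with no exact sense match to a transcript. For the 4 described arms they held 1 read with SB431542, 0.231% of the arms' exact and mismatched reads, and 10 with DMSO, 0.789%. Of the 10 with DMSO, 4 had the same change, A5G in miR-411-5p, counted from the first base of the RefSeq sequence. They came from both starts, 3 from start 0 and 1 from start -1, shown here with the changed base in capitals.
start 0, 16 nt: tagtGgaccgtatagc
start -1, 17 nt: atagtGgaccgtatagc
A5G was the only A-to-G change in these arms, and each of the other changes had at most 2 reads. Its share of miR-411-5p was 0 of 257 reads with SB431542, with a Clopper-Pearson upper bound of 1.43%, where 3 reads would be 1.17%, and 4 of 732 with DMSO, 0.546% (Clopper-Pearson, 0.149 to 1.39), so no difference between the libraries was detectable. No mismatched read of miR-376a-3p was found in either library, beside 28 exact reads with SB431542 and 67 with DMSO. There 3 reads would be 10.7% with SB431542 and 4.48% with DMSO, so lower shares could not be seen. The A5G base of miR-411-5p lies in the seed. It is known as a site of A-to-I editing in human miR-411, which sequencing reads as an A-to-G change. Whether the 4 reads came from editing or from sequencing error was not tested.

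Reads of 14 nt from the 10 hairpins numbered 6 with SB431542 and 33 with DMSO. Most were miR-323-3p from its RefSeq start, with 5 reads with SB431542 and 23 with DMSO, while miR-411-5p had 1 with SB431542 and 2 with DMSO. Sequences with 1 unmatched base after a matching stretch of a member held 0 reads with SB431542 and 3 with DMSO. These 3 are among the 10 mismatched reads with DMSO given above. No read of 15 to 17 nt matched only the opposite strand of a member hairpin.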
